A study of Ovis aries with 7 samples.

Results

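Ribosome assembly factors and the subunits of RNA polymerase I were followed in 8-cell embryos of the sheep (Ovis aries). Genes were taken by name: symbols that start with NOP, NOL, UTP or RRP and a number, the POLR1A to POLR1H subunits, and NHP2, GAR1, DKC1, FBL, NCL, NPM1 and NOLC1. This gave 51 of 31304 rows of the expression table. The study compared fertilized embryos (in vitro fertilization, IVF, 3 libraries) with cloned ones (somatic cell nuclear transfer, SCNT, 4 libraries), whose nucleus comes from a body cell. Polyadenylated RNA was read with Smart-seq2 after 20 cycles of PCR. All values below belong to the 3 IVF libraries, named replicates 1, 2 and 3 by their labels. The SCNT libraries were not analysed here, since the names of the remaining 4 columns could not be tied to a sample by the labels, and no comparison of SCNT with IVF was made.

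Ribosomes are assembled in the nucleolus. RNA polymerase I transcribes the long precursor of the ribosomal RNAs, small nucleolar particles modify it at many positions, and assembly factors fold, cut and export the 2 subunits. In early mammalian embryos nucleoli are rebuilt from compact precursor bodies around the time the embryonic genome is activated. The assay read messenger RNA for this machinery and not ribosomal RNA itself. The sources used here do not say how many embryos entered a library or tie a library to an independent trial, so part of the spread between libraries may be technical.

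Values are TPM, a unit of transcript abundance scaled by gene length and library total. Sequencing depth cannot be read from them and is unknown, and counting intervals are left out. They are shown per library or as mean ± SD (n = 3). Marker genes were read first. Of 5 markers measured for the 8-cell embryo, 4 were at 1 TPM or more in every library, with summed levels of 972 to 1846 TPM, and 6 of 7 oocyte markers were at that level, with sums of 971 to 1469 TPM. Of 7 cumulus and granulosa markers 2 reached it, with sums of 11.6 to 19.1 TPM and PTX3 listed at 0 throughout. Of 11 fibroblast markers 3 reached it, with sums of 13.8 to 23.2 TPM and POSTN listed at 0 throughout.

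The machinery was broadly present. Of the 51 genes, 49 had at least 1 TPM in every library, against 31.4% of all rows and 49.0% of rows with a gene symbol. By mean level, 17 genes (33.3%) stood at 100 TPM or more, 24 between 10 and 100, 8 between 1 and 10, and NOL3 and NOP2 lower. Among 16540 symbol rows, 5.86% stood at 100 TPM or more and 9.60% were listed at 0. The median gene of the set stood at 40.8, 47.9 and 54.0 TPM in replicates 1, 2 and 3, and the median symbol row at 1.47, 1.74 and 1.32 TPM. Together the 51 genes summed to 4834, 7331 and 5945 TPM, with replicate 2 highest and replicate 1 lowest. The 10 most abundant were NHP2, UTP11, NPM1, POLR1D, NOP10, NOP58, NOP16, NOP56, NCL and FBL.

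**Figure D1:**
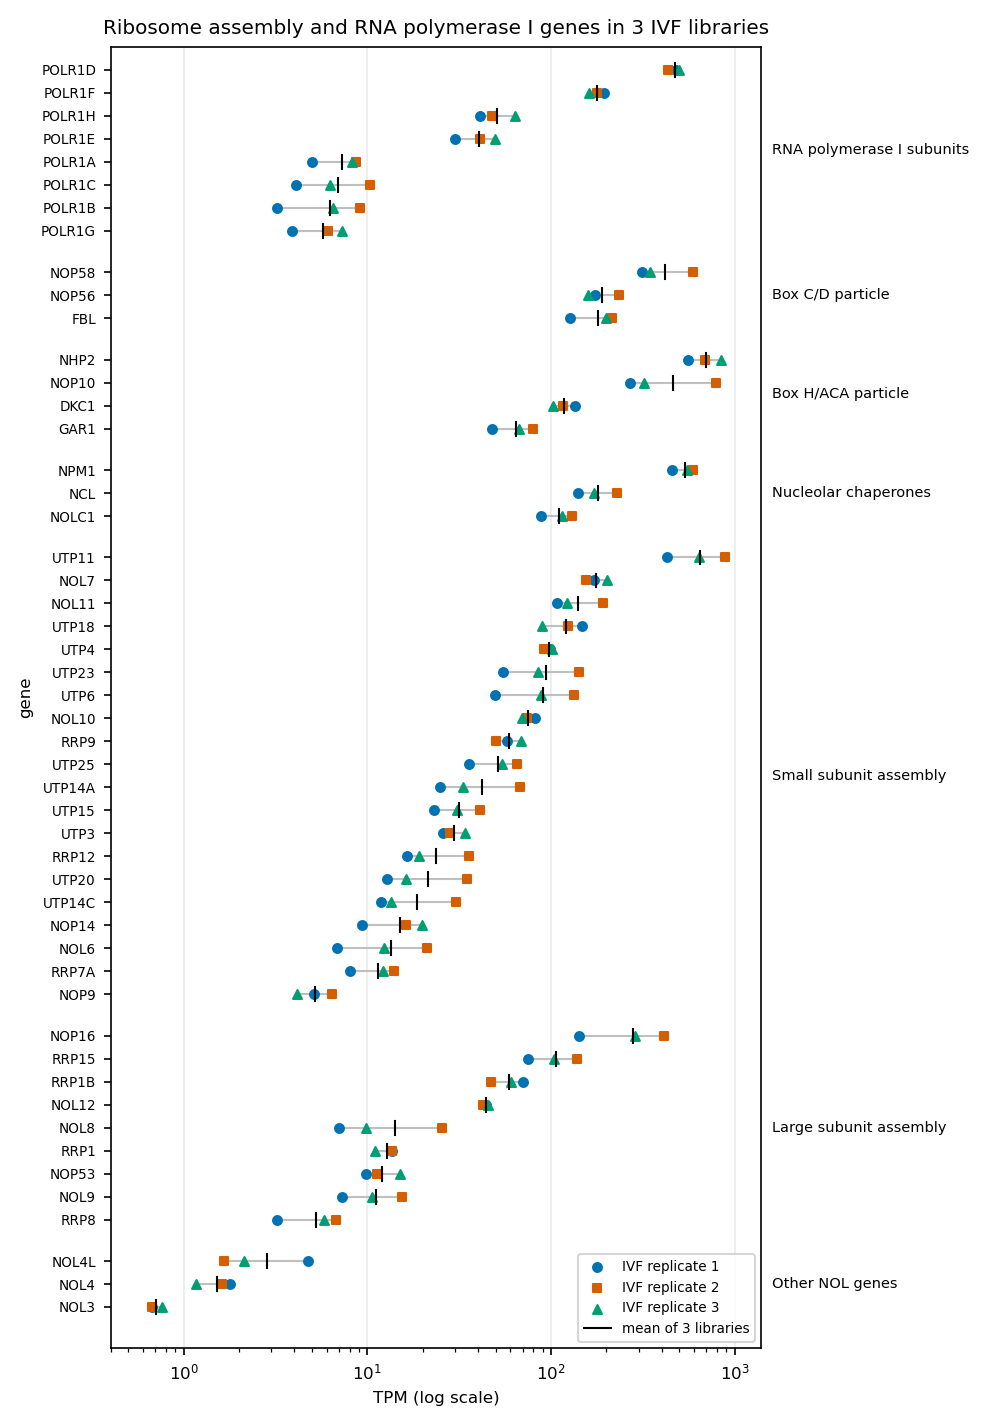
TPM on a log scale of the 50 genes above 0, grouped by role, with 1 symbol for each IVF library, a grey line over their range and a black tick at the mean. NOP2, listed at 0 in every library, is not drawn. Mean levels span 2.31-fold among the 3 box C/D proteins of the set, which leaves out SNU13. They span 81.8-fold among the RNA polymerase I subunits, from POLR1D at 471 TPM to POLR1G at 5.75 TPM. In small subunit assembly the span is 125-fold, from UTP11 to NOP9.

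Subunits of RNA polymerase I differed in level by up to 81.8-fold between the highest and the lowest mean. POLR1D, an assembly subunit that RNA polymerase III also uses, had 482, 432 and 499 TPM in replicates 1, 2 and 3, the order kept in all lists of values below. Its partner in that assembly, POLR1C, was at 4.08, 10.3 and 6.27 TPM. No library of POLR1C came near any library of POLR1D. On the log2(TPM + 1) scale POLR1C minus POLR1D had a mean of -5.98 ± 0.66 (SD, n = 3, exact sign-flip p = 0.25, two-sided). With 3 libraries 0.25 is the smallest p this test can give, and the value adjusted over the 10 gene pairs compared in this way was 0.357 (Benjamini-Hochberg).

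POLR1F, the subunit of the stalk that meets the initiation factor RRN3, was the second highest at 195, 178 and 162 TPM. POLR1H, the small subunit linked to RNA cleavage, was at 40.8, 47.9 and 63.9 TPM. POLR1E, part of the heterodimer found only in this polymerase, was at 30.1, 41.0 and 49.8 TPM. These 3 kept the same order in every library, and the log2(TPM + 1) level of POLR1E minus that of POLR1F was -2.14 ± 0.49. The catalytic subunits were far lower. POLR1A, the largest, was at 5.01, 8.68 and 8.24 TPM, and POLR1B, the second largest, at 3.20, 9.15 and 6.48 TPM. POLR1G, the partner of POLR1E, was at 3.89, 6.09 and 7.28 TPM. The ranges of POLR1A, POLR1B, POLR1C and POLR1G overlapped, and POLR1A exceeded POLR1B by 0.25 ± 0.30 on the log2(TPM + 1) scale, less than the spread between libraries. Thus 4 of the 8 subunits shared a low level, and 4 formed a descending series above it. By RefSeq position POLR1A, POLR1C and POLR1G overlap other genes and POLR1D lies wholly inside one. POLR1B, POLR1E, POLR1F and POLR1H overlap none. How reads were assigned where genes overlap is not known, and its part in these levels was not tested.

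Other genes of polymerase I transcription were taken from a list of 9 factors, and all 9 had at least 1 TPM in every library. TAF1B and TAF1A, subunits of the promoter selectivity factor, were at 89.9 ± 18.4 TPM and at 65.9 ± 11.0 TPM. RRN3, which brings the polymerase to the promoter, was at 82.9, 73.7 and 54.8 TPM. For the whole list the median stood at 15.8, 28.4 and 17.1 TPM. The 5 subunits that polymerases I, II and III share had a higher median of 728, 622 and 830 TPM. Among them POLR2F was at 1897 ± 385 TPM, POLR2K at 961 ± 227 TPM and POLR2H at 751 ± 113 TPM, all above the mean of every polymerase I subunit in the set.

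The box C/D particle adds methyl groups to ribosomal RNA. Its 3 core proteins in the set lay within 2.31-fold of each other by mean. SNU13, a further core protein that the rule on names does not take, was higher at 876 ± 261 TPM. NOP58, a scaffold protein, was at 311, 594 and 345 TPM, and its paralog NOP56 at 174, 235 and 160 TPM. NOP56 was lower than NOP58 in 3 of 3 libraries, and NOP56 minus NOP58 was -1.09 ± 0.25 on the log2(TPM + 1) scale (exact sign-flip p = 0.25, n = 3). FBL, the methyltransferase fibrillarin, was at 127, 215 and 199 TPM. FBL and NOP56 were not separated: their log2(TPM + 1) difference was -0.090 ± 0.39, and it was 0.095 without replicate 1. All 3 proteins were highest in replicate 2.

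The box H/ACA particle, which converts uridine to pseudouridine and also belongs to telomerase, was less even, with a 10.8-fold span of mean levels. NHP2, a small RNA-binding subunit, was the most abundant gene of the whole set at 560, 689 and 847 TPM. NOP10, the smallest core protein, was at 269, 790 and 319 TPM, with replicate 2 far above the others. NOP10 therefore exceeded NHP2 in replicate 2 and lay below it in replicates 1 and 3, and the mean log2(TPM + 1) difference of -0.76 ± 0.84 was smaller than its spread. DKC1, the pseudouridine synthase dyskerin, was at 135, 116 and 102 TPM, and GAR1, which joins the mature particle, at 47.5, 79.5 and 66.9 TPM. GAR1 was lower than DKC1 in 3 of 3 libraries, and GAR1 minus DKC1 was -0.88 ± 0.53 on the log2(TPM + 1) scale (exact sign-flip p = 0.25, n = 3). The DKC1 order, highest in replicate 1 and lowest in replicate 3, was the reverse of that of NHP2.

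Messenger RNAs of abundant nucleolar proteins kept a steady order. NPM1, the nucleolar chaperone nucleophosmin, was at 457, 597 and 551 TPM. NCL, nucleolin, was at 140, 229 and 172 TPM, and NOLC1, a chaperone of small nucleolar particles, at 87.7, 130 and 115 TPM. NPM1 exceeded NCL by 1.58 ± 0.18 and NCL exceeded NOLC1 by 0.69 ± 0.12 on the log2(TPM + 1) scale, each in 3 of 3 libraries (exact sign-flip p = 0.25 for each, n = 3). All 3 genes were lowest in replicate 1 and highest in replicate 2.

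**Figure D2:**
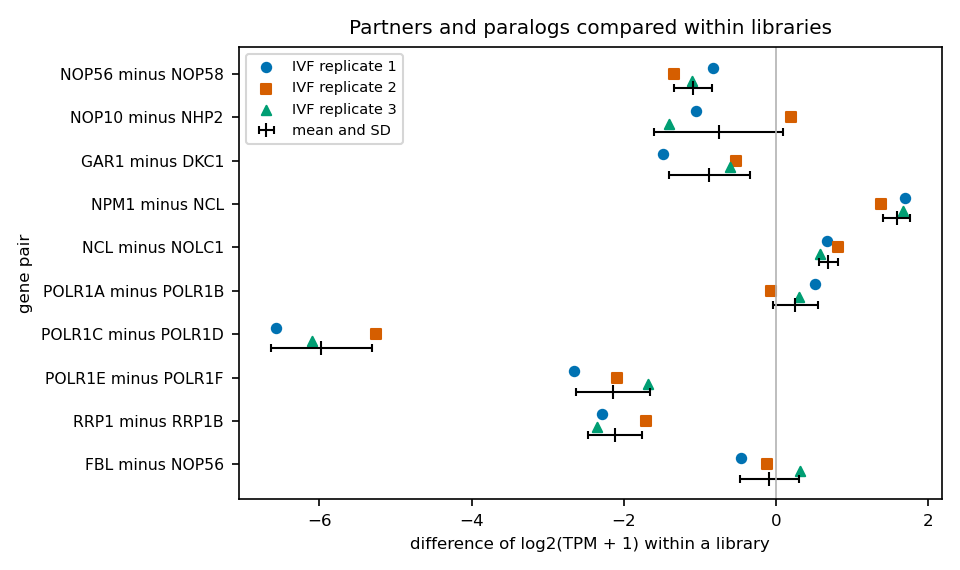
Difference of log2(TPM + 1) between the genes of each pair within a library, with 1 symbol for each IVF library and a bar for mean and SD. In 7 of the 10 pairs all libraries lie on the same side of 0. The libraries fall on both sides for NOP10 and NHP2, POLR1A and POLR1B, and FBL and NOP56.

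The 20 factors of the small subunit processome and later small subunit assembly all had at least 1 TPM in every library, with a median of 30.7, 57.8 and 44.1 TPM. UTP11, a protein of the U3 particle that guides early cleavage, led at 429, 882 and 636 TPM. NOL7 was at 173, 155 and 201 TPM and NOL11, a processome subunit, at 108, 192 and 123 TPM. UTP18 was at 148, 123 and 89.7 TPM, highest in replicate 1 where most other genes of the set were lowest. The steadiest of the class was UTP4, cirhin, at 99.4, 91.1 and 101 TPM, with an SD of 5.50% of its mean. NOL10 was nearly as steady at 81.4, 73.8 and 69.4 TPM. Means between 11.4 and 94.1 TPM were seen for UTP23, UTP6, RRP9, UTP25, UTP14A, UTP15, UTP3, RRP12, UTP20, UTP14C, NOP14, NOL6 and RRP7A. NOP9 was the lowest of the class at 5.11, 6.39 and 4.13 TPM.

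Several processome genes were high in replicate 2. UTP14A was at 24.8, 67.8 and 33.1 TPM, and UTP14C at 11.9, 30.3 and 13.5 TPM. UTP14C is known in human as a retrotransposed copy of UTP14A, and the counting tool is not given, so how reads were split between these near copies is uncertain. UTP20, a very large scaffold protein, was at 12.9, 35.0 and 16.2 TPM, and UTP23 at 54.9, 143 and 84.8 TPM. UTP6 was at 49.6, 133 and 87.9 TPM and NOL6 at 6.86, 21.2 and 12.4 TPM. These genes were named for being high in replicate 2, so its place as the highest library follows from the choice. Replicate 1 was lowest for all of them. In the whole class of 20 factors, 13 were highest in replicate 2 and 14 lowest in replicate 1. Among all rows whose mean reached 5 TPM the shares were 49.3% and 40.2%.

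Of 10 genes for large subunit assembly and ribosomal RNA processing, 9 had at least 1 TPM in every library, and the median was 11.7, 20.5 and 13.0 TPM. NOP16 was highest at 142, 415 and 287 TPM. RRP15 was at 75.1, 139 and 104 TPM and NOL12, an RNA-binding processing factor, at 44.4, 42.6 and 45.5 TPM, with the smallest SD of the class at 3.23% of its mean. RRP1B was at 70.4, 47.0 and 60.6 TPM and its paralog RRP1 at 13.7, 13.7 and 11.0 TPM. RRP1 was lower than RRP1B in 3 of 3 libraries, and RRP1 minus RRP1B was -2.12 ± 0.35 on the log2(TPM + 1) scale (exact sign-flip p = 0.25, n = 3). NOL8 varied most between libraries of all genes in the set on that scale, at 6.97, 25.4 and 9.83 TPM. NOP53, which links the exosome to pre-ribosomes, was at 9.77, 11.2 and 15.1 TPM, NOL9, a polynucleotide kinase, at 7.27, 15.5 and 10.5 TPM, and RRP8, a ribosomal RNA methyltransferase, at 3.23, 6.79 and 5.82 TPM.

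NOP2, another ribosomal RNA methyltransferase, was listed at 0 in every library. In the RefSeq gene table the span of NOP2 is wholly covered by its neighbours CHD4, at 4.58, 12.3 and 5.92 TPM, and IFFO1, at 0.397, 0.171 and 0.0581 TPM. Of 621 symbol rows lying wholly inside other genes, 43.6% were listed at 0 in every IVF library, against 8.29% of 15895 others. POLR1D also lies wholly inside another gene, LOC101113604, which was at 33.1 ± 8.37 TPM. The sources used here do not say whether counting used strand, so for these genes, and for the 17 of 51 that overlap another gene at all, reads of the overlapping genes may not be told apart.

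NOL3, NOL4 and NOL4L carry the name without being known as assembly factors, and they were the lowest of the set above 0. Their median, 1.78, 1.61 and 1.17 TPM, lay below that of symbol rows in replicates 2 and 3. NOL3, an inhibitor of apoptosis, was at 0.671, 0.672 and 0.763 TPM, NOL4 at 1.78, 1.61 and 1.17 TPM and NOL4L at 4.73, 1.66 and 2.14 TPM. The next gene upward was NOP9, with a mean of 5.21 TPM.

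Levels moved between the IVF libraries, and most genes of the set were lowest in replicate 1. Of 47 genes whose mean reached 5 TPM, 34 (72.3%) were lowest in replicate 1, against 40.2% of 6978 rows at that level. For genes and rows alike, that mean includes the library compared. Without replicate 2, POLR1B, RRP8 and NOP9 had means of 4.84, 4.52 and 4.62 TPM, and without replicate 3 POLR1G had 4.99 TPM. Each thus passed the filter only with the library where it was highest. In replicate 2, 29 (61.7%) were highest, against 49.3% of rows. After scaling by the median of ratios these counts were 30 (63.8%, rows 35.3%) and 21 (44.7%, rows 30.6%). That scaling moved replicate 2 as a whole by -0.25 and replicate 3 by 0.14 on the log2 scale, so differences are given next relative to the median row.

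Relative to the median of all rows, the median gene of the set lay at -0.53 in replicate 1, 0.26 in replicate 2 and 0.18 in replicate 3, each as log2(TPM + 1) minus the mean of the other libraries. With median of ratios scaling these values were -0.53, 0.27 and 0.19. Compared singly, replicates 2 and 3 lay above replicate 1 by 0.55 and 0.42, and replicate 2 above replicate 3 by 0.072, again relative to the median row. Replicate 1 thus stood apart from both others for these genes more than those differed from each other. A library has no replicate of its own, so these differences carry no test.

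At least 2-fold differences were fewer. In replicate 2, 8 of 47 genes (17.0%) were at least 2-fold above the mean of the other libraries, against 12.8% of all rows, a share not far from the background. With median of ratios scaling there were 2 such genes (4.26%, rows 4.75%), a share at the background. Against replicate 3 alone there were 5 (10.6%, rows 10.3%), and against replicate 1 alone 13 (27.7%, rows 17.3%). No gene of the set was 2-fold lower there, against 3.85% of rows. NOL8 and NOP10 differed most, by 1.51 and 1.43 on the log2(TPM + 1) scale, followed by UTP20, UTP14A and UTP14C. In replicate 1, 5 genes (10.6%) were at least 2-fold lower, against 7.71% of rows: NOP16, NOL6, UTP6, NOL8 and POLR1B. POLR1B reached the mean level required for this count only with replicate 2 included. No gene was 2-fold higher in replicate 1, against 5.65% of rows. Median of ratios scaling left 2 of this kind (4.26%, rows 4.97%), again at the background. Comparison with replicate 3 alone left 1 (2.13%, rows 3.45%), and with replicate 2 alone there were 13 (27.7%, rows 17.3%). No gene passed 2-fold in either direction in replicate 3, where the shares of rows were 0.817% higher and 2.62% lower.

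Not all genes moved with the set. Above the mean of the other libraries lay 9 of 47 genes in replicate 1, against 46.0% of rows, and 35 in replicate 2, against 60.3%. In replicate 3 the count was 27, against 38.4% of rows. The genes named next are the 5 furthest above in replicate 1, below in replicate 2, and either way in replicate 3. In replicate 1, UTP18, RRP1B, DKC1, POLR1F and NOL10 lay above the mean of the other libraries, by 0.49, 0.39, 0.31, 0.20 and 0.18 on the log2(TPM + 1) scale. In replicate 2, RRP1B was lowest relative to the others at -0.47, then RRP9 at -0.30, NOL7 at -0.26, POLR1D at -0.18 and UTP4 at -0.14. NOP14, POLR1H, POLR1E, POLR1G and NOP53 led in replicate 3 at 0.63, 0.52, 0.49, 0.49 and 0.49. UTP18, NOP10, UTP14C, NOL8 and NOP9 were lowest there at -0.59, -0.53, -0.47, -0.42 and -0.39. Over the 47 genes the median SD between libraries was 0.38 on the log2(TPM + 1) scale, close to the 0.40 of all rows at that level, and 11 genes had an SD under 0.25 (23.4%, rows 25.0%).

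Other measures moved between the same libraries. Summed markers of the 8-cell embryo were 972, 1846 and 1150 TPM in replicates 1, 2 and 3, but the single markers did not move alike. The activation gene ZSCAN4 was at 54.7, 216 and 69.3 TPM and ARGFX at 376, 1022 and 444 TPM. EIF1AX, at 443, 491 and 532 TPM, and KLF17, at 98.9, 117 and 105 TPM, moved less. DPRX was at 0, 0 and 0.355 TPM. Fibroblast markers summed to 13.8, 23.2 and 21.1 TPM, cumulus and granulosa markers to 12.4, 19.1 and 11.6 TPM, and oocyte markers to 1142, 1469 and 971 TPM. Of the oocyte markers, ZP2, ZP4, GDF9 and BMP15 were highest in replicate 2, while ZP3, OOEP and NLRP5 were lowest there. Rows at 1 TPM or more numbered 11090, 12246 and 10973. The 24 mitochondrial rows took 0.297, 0.646 and 0.277% of TPM, and rows for tRNA 0.0471, 0.142 and 0.0753%, with replicate 2 highest in both and replicate 1 not set apart from replicate 3 in the mitochondrial share. The part of these measures in the differences between libraries was not tested.

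**Figure D3:**
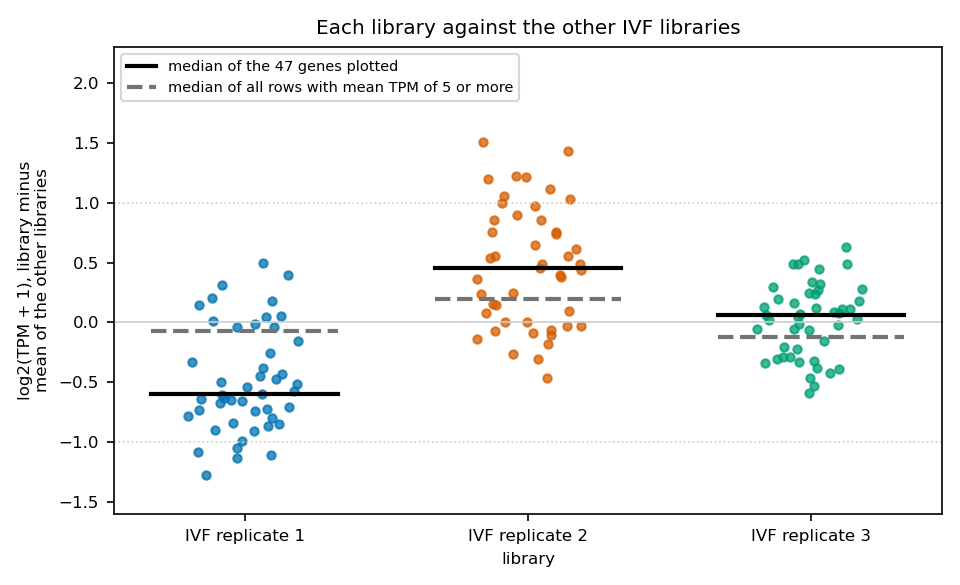
Each point is 1 of 47 genes whose mean reached 5 TPM, placed by log2(TPM + 1) in a library minus the mean of the other libraries. The solid line is their median, the dashed line the median of all 6978 rows at that level, and the dotted lines mark 2-fold. The solid line lies 0.53 below the dashed line in replicate 1 and above it in replicates 2 and 3.

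Genes for assembly of either ribosomal subunit outside the set followed a similar order of libraries, and other lists did so less or not at all. Lists of 143 further genes, 141 of them in the table, covered polymerase I factors, shared polymerase subunits, assembly of either subunit, assembly of small nucleolar particles, the RNA exosome and the MYC family. At least 1 TPM in every library was reached by 140 of the 141. Of 129 whose mean reached 5 TPM, 78 (60.5%) were lowest in replicate 1 and 75 (58.1%) highest in replicate 2, against the 40.2% and 49.3% of rows. Lowest in replicate 1 were 28 of 41 genes for small subunit assembly and 32 of 45 for large subunit assembly, but 3 of 8 polymerase I factors and 2 of 5 shared polymerase subunits. For assembly of small nucleolar particles the count was 5 of 9 (55.6%). In the exosome list it was 6 of 14 (42.9%) and in the MYC family 2 of 7 (28.6%). All of these come from the same libraries as the set and are no independent check.

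In the list for small subunit assembly 44 of 44 genes passed 1 TPM in every library, with a median of 25.7, 44.7 and 35.1 TPM. NGDN was at 267, 592 and 404 TPM, PNO1, a late assembly factor, at 389, 368 and 474 TPM, and IMP3, a U3 particle protein that lies wholly inside another gene, at 311, 288 and 532 TPM. In the list for large subunit assembly 47 of 47 genes in the table passed, with a median of 23.5, 46.5 and 30.4 TPM. RSL24D1, which holds a place on the immature large subunit, was at 1223, 1262 and 1272 TPM, NIFK, a partner of the proliferation antigen Ki-67, at 779, 766 and 820 TPM and BRIX1 at 657, 776 and 882 TPM. RSL24D1 and NIFK varied little between libraries while the list's median was lowest in replicate 1.

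Factors that assemble small nucleolar particles had a median of 13.8, 31.6 and 34.5 TPM, with 11 of 11 at 1 TPM or more throughout. SNU13, the core protein that binds the box C/D RNA first, was at 604, 1125 and 901 TPM, above NOP58, NOP56 and FBL in every library. ZNHIT3 and NUFIP1, which help to load it, were at 436, 376 and 472 TPM and at 237, 290 and 262 TPM.

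**Figure D4:**
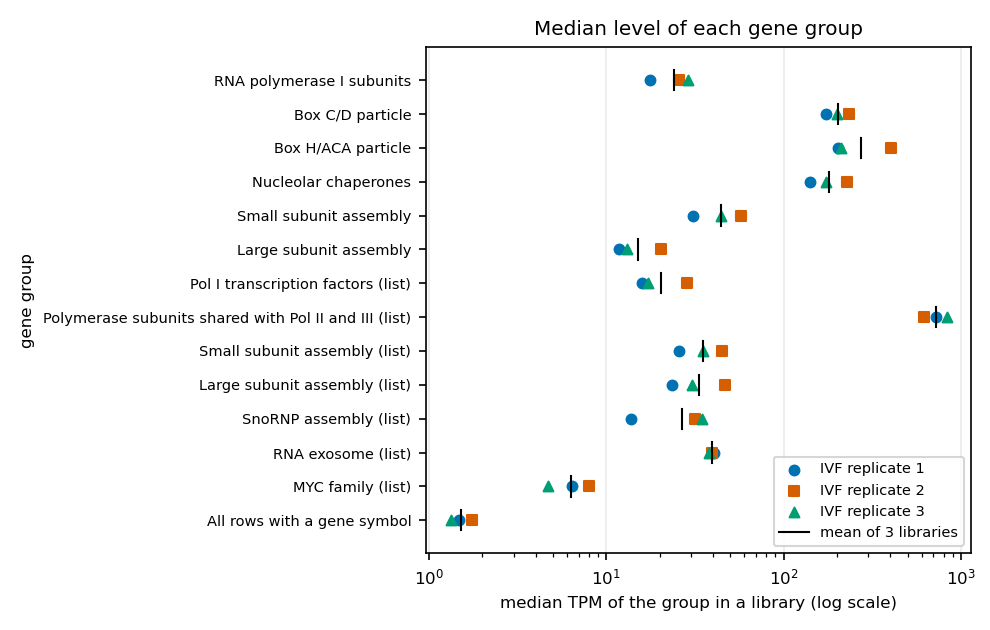
Median TPM in each IVF library, on a log scale, of the genes in each role, of the further lists and of all rows with a gene symbol, with a black tick at the mean of the libraries. The groups drawn lie above the median symbol row in every library, and the subunits shared by the polymerases are highest at 622 to 830 TPM. NOL3, NOL4 and NOL4L are not drawn.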

How the data were processed

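The deposited table holds TPM, which the authors computed per gene and library; each of the 3 IVF columns used sums to 1000000. The submitters' processing notes name fastp 0.23.4 and HISAT2 2.2.1, with mouse and pig builds. Sheep build, annotation and counting tool: not given in the sources used here. Columns were assigned by name. Another 4 columns hold values of samples whose names the labels do not use; they were left out, although a few of their values were seen when the table was opened. The planned use of SCNT samples depended on matching names.

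The set, classes, pairs and lists were chosen with earlier results of these data known. Members were taken by symbol; all 51 matched the ARS-UI_Ramb_v3.0 gene table, used for names and overlaps only. Symbol rows exclude LOC, tRNA and mitochondrial rows. Differences are on log2(TPM + 1), a scale that shrinks ratios of low genes, among rows whose mean reached 5 TPM. Gene pairs were compared by an exact two-sided sign-flip permutation test. Named genes are the polymerase subunits, particle and chaperone proteins, the 10 most abundant, those under 1 TPM, the 5 largest differences per library and direction, pair members and the 3 most abundant per list; remaining members are named for completeness. The step that counts 2-fold differences was tested on simulated data. Alternatives were detection thresholds, pseudocounts, filters, scalings and leaving out libraries. Python 3.11.15, numpy 2.4.6, pandas 2.3.3 and matplotlib 3.10.9 were used.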

Additional observations from a re-analysis of the deposited data

How the results depend on the processing

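No paired analysis was possible because only IVF columns carry a sample's name, so the groups that share replicate numbers could not be compared. Without depth, a low TPM and a loss by sampling look alike. The median member, 47.6 TPM, was 55.5 with TPM rescaled after removing mitochondrially encoded and ribosomal protein rows and 55.3 without NOL3, NOL4 and NOL4L, and the box C/D median, 203 TPM, was 237 under that rescaling. The rescaling raises all rows of a library alike, by 0.21, 0.22 and 0.24 on the log2 scale in replicates 1, 2 and 3. The rises under it follow from that and are not particular to these genes. In replicate 1 the 5 genes at least 2-fold lower became 2 (4.26%) with a pseudocount of 5, where 3.53% of rows passed, and 2 with median of ratios scaling, where 4.97% of rows passed, and the median relative to all rows became -0.43 with a pseudocount of 5. In replicate 2 the 8 genes at least 2-fold higher became 2 with median of ratios scaling, where 4.75% of rows passed, and without a filter on low values the relative median was 0.40, and 0.048 in replicate 3. These unfiltered values equal those of NOP9 and UTP11 before the median row is subtracted. That subtraction thus changed nothing there, and the values cannot be set beside the filtered ones. With 1 of the other libraries left out, an alternative chosen after seeing the data, the counts in replicate 1 ran from 1 to 13 lower, in replicate 2 from 5 to 13 higher and in replicate 3 from 0 to 1 higher and 0 to 5 lower, with 3.45 to 17.3%, 10.3 to 17.3%, 2.12 to 3.45% and 5.49 to 10.3% of rows. The relative medians ran from -0.55 to -0.42, from 0.072 to 0.55 and from -0.072 to 0.42 in replicates 1, 2 and 3, so the sign in replicate 3 was reversed without replicate 1. FBL minus NOP56 ran from -0.29 to 0.095 with a library left out. The causes were not tested. Apart from leaving out libraries, the other 99 values of these results under the alternatives stayed within the limits set for them. Besides these, 12 values of single genes moved by more than 1 SD, all under the rescaling that raises all rows of a library alike. They belong to genes with a small SD for their mean, such as UTP4 and NOL12, so they mark steady genes and not unstable ones.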

Other observations

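Genes of the RNA exosome, which trims ribosomal RNA precursors, and of the MYC family, transcription factors known to promote ribosome production, were also read. The exosome list had 15 of 15 genes in the table at 1 TPM or more in every library, with a median of 40.6, 39.5 and 37.8 TPM in replicates 1, 2 and 3. EXOSC1 was at 341, 561 and 569 TPM and EXOSC8 at 342, 317 and 425 TPM. ERI1, a separate exonuclease that the list includes though it is no exosome subunit, was at 208, 153 and 177 TPM. The MYC family had 9 of 10 at that level, with MNT below it. MAX, the shared partner, was at 60.5, 51.0 and 59.5 TPM. MYCN was at 11.3, 49.4 and 15.7 TPM, highest in replicate 2, and MXD1, a repressor of the family, at 19.9, 11.8 and 12.3 TPM. MYC itself was at 8.09, 8.05 and 4.13 TPM. MYC and MNT were chosen for mention after their values were seen.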
